A study of Mus musculus with 3 samples.

Results

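Collagen chains other than those of the main basement membrane pair Col4a1 and Col4a2 were read from bead arrays of mouse embryonic stem (ES) cells and of the endoderm made from them. A member was any probe whose gene symbol in the deposited signal table had the form of a collagen chain name (Col, a number, a, a number), with Col4a1 and Col4a2 left out. This took 54 probes of 34 genes, out of 25697 probes for 18106 gene symbols on the array. Of these, 20 probes of 17 genes passed the filter on low signals, a detection p-value under 0.05 on at least 2 of the 6 arrays. The detection p-value is the array's own measure of whether a probe is brighter than its control probes.

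All cells were mouse ES cells of a 129 background with a Sox17-GFP reporter, which marks cells that express the endoderm transcription factor Sox17. The first group was Sox17-GFP(+) cells after treatment with recombinant human Activin A at 50 ng/ml in medium with 5% serum, the second was Sox17-GFP(+) cells after recombinant mouse Nodal at 1000 ng/ml in the same medium, and the third was undifferentiated cells of the line. The source names give day 7 for both treatments, while the protocol gives 6 to 8 days. Per the growth protocol, undifferentiated cells grew with LIF on gelatin and mouse embryonic fibroblasts (feeders), so treatment, culture time, LIF, feeders and selection by the reporter cannot be told apart in a comparison with them. Activin and Nodal differed in protein, species of origin and dose together. Each group had 2 arrays, and nothing says that they came from separate cultures, so the p-values rest on a spread between arrays, which may be technical. The sample descriptions give 2, 3 and 4 replicates where the signal table holds 2 of each group.

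The arrays were alike in yield, with 49.3% to 50.6% of probes detected and a median signal of 55.2 to 60.9. Levels are given below as log2 normalized signal, in which the dimmest probes lie near 4.4 and the lowest detected probe of an array lies between 4.99 and 5.06. Signals of different probes are not on a common scale, so levels are compared between groups and not between genes. The series design text calls the ES sample SOX17-GFP (+), but the title calls it undifferentiated. Sox17 had log2 levels of 11.83 and 11.89 with Activin, 11.90 and 11.79 with Nodal, and 6.57 and 6.45 in the undifferentiated cells.

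Collagens are trimers of chains wound into a triple helix. Fibrillar chains assemble into the tension-bearing fibrils of connective tissue, basement membrane chains build sheets under epithelia, and other classes sit on fibrils, anchor them to basement membranes or span the cell membrane. In an early embryo, basement membrane collagen is made by endoderm, while type I and type III fibrils are products of fibroblasts and other mesenchyme. A chain that needs a partner from another gene forms its usual trimer only where both are made, so the partners are described together.

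A further 17 member genes were detected on no array. These were Col1a2, Col5a2, Col5a3, Col11a1, Col24a1 and Col27a1 of the fibrillar class, Col4a3, Col4a4 and Col4a6 of the basement membrane class, Col10a1 of the hexagonal networks, Col6a2 of the beaded filaments, Col9a3, Col14a1 and Col19a1 of the chains bound to fibrils, Col15a1, the transmembrane Col13a1, and Col28a1. The 34 member probes that did not pass had signals of 28.0 to 62.9. They include further probes of 7 tested genes, Col3a1, Col6a1, Col7a1, Col9a1, Col17a1, Col18a1 and Col25a1. Counting genes with a probe detected on both arrays of a group gave 11 of 34 after Activin, 13 of 34 after Nodal and 13 of 34 in undifferentiated cells.

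Against undifferentiated cells, 8 of the 17 tested chains were higher and 7 were lower after Activin, and 2 did not pass (limma, Benjamini-Hochberg adjusted p under 0.05). The background was high, since 36.5% of the 10222 genes tested were higher and 37.2% were lower in this comparison. After Nodal, 7 chains were higher, 7 were lower and 3 did not pass, against 36.8% of all genes higher and 37.4% lower. With a change of at least 2-fold also required, 5 chains were higher and 3 lower after Activin, against 14.3% and 12.6% of all genes. The same rule gave 4 higher and 4 lower after Nodal, against 14.7% and 12.9% of all genes. The chains thus did not move as a family in either comparison: their median log2 difference was −0.05 after Activin and −0.14 after Nodal, beside −0.02 and −0.01 over all genes. Both comparisons use the same undifferentiated arrays. Some chains could pass the filter only through the side where they were high: Col1a1 and Col3a1 were detected on undifferentiated arrays alone, and Col23a1, Col4a5 and Col8a2 on arrays of treated cells alone, so these counts describe the chains and support nothing further. Col8a2 is counted as higher by its adjusted p, although its level stayed at the detection limit.

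**Figure D1:**
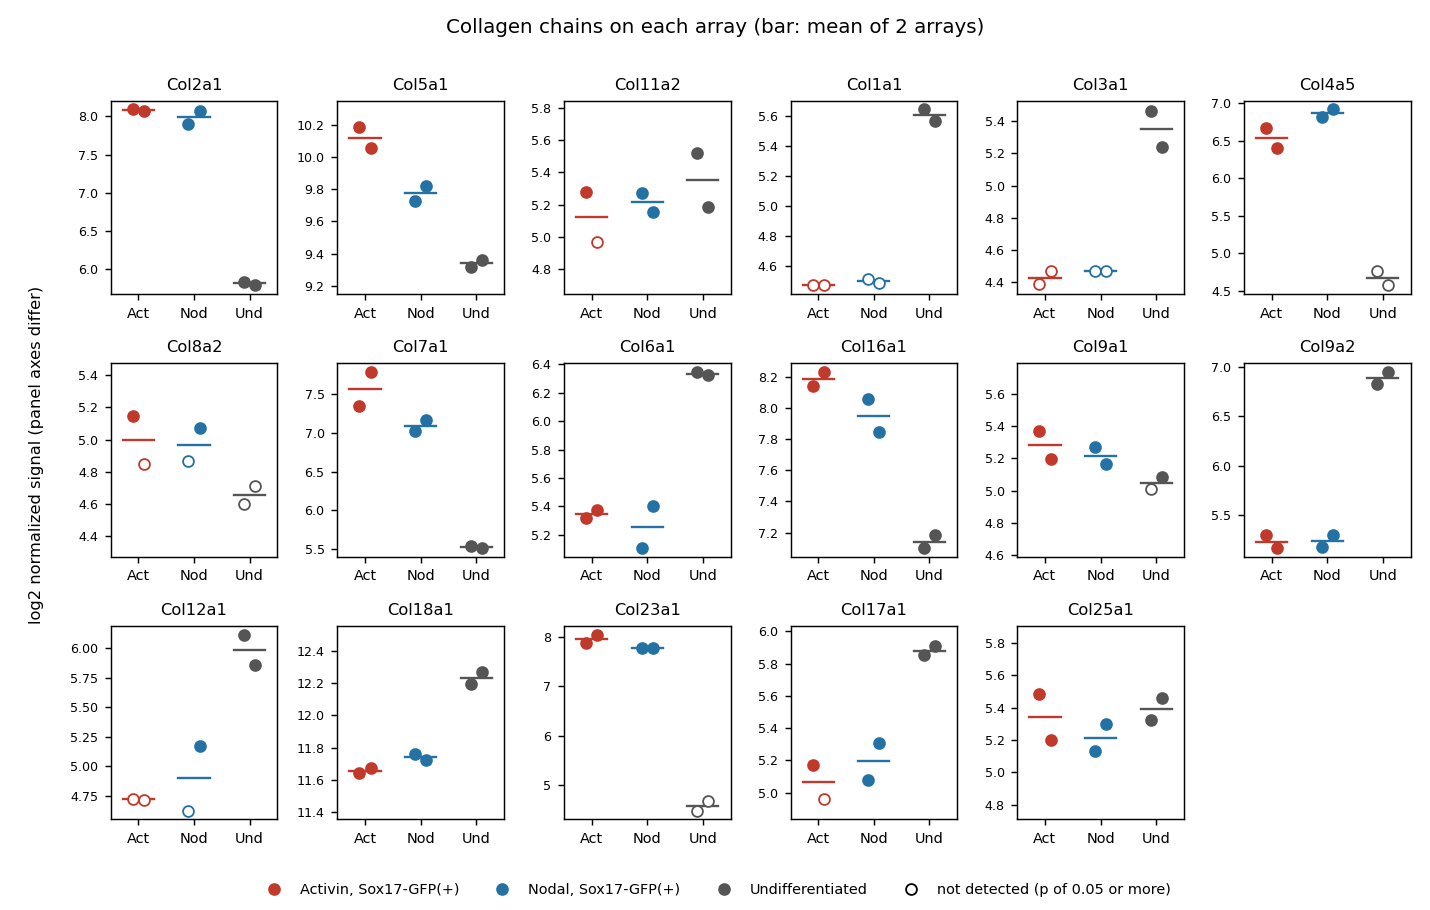
Log2 normalized signal of the 17 tested collagen chains on each array, for cells after Activin (Act), after Nodal (Nod) and undifferentiated (Und). Each point is an array, a bar is the mean of 2 arrays, and an open point marks a probe that was not detected there. Col23a1, Col4a5, Col2a1 and Col7a1 are high on all 4 arrays of treated cells, and Col1a1 and Col3a1 are detected on the 2 undifferentiated arrays alone.

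Among the 11 fibrillar genes, 5 were tested, and in each treated group 2 were higher, 2 were lower and 1 did not pass. Col2a1, the chain of cartilage and notochord fibrils, had log2 levels of 8.09 and 8.07 with Activin, 7.90 and 8.07 with Nodal, and 5.84 and 5.79 in the undifferentiated cells. The arrays of treated cells were far above the undifferentiated ones, and the Activin and Nodal arrays overlapped. Its level rose by 2.26 on the log2 scale after Activin (SE 0.0912, adjusted p = 1.83e-08), a 4.79-fold difference, and by 2.17 after Nodal (adjusted p = 2.34e-08), a 4.50-fold difference. A second Col2a1 probe rose by 2.08 after Activin and by 1.75 after Nodal.

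Col5a1, whose chain helps to start fibrils and set their width, had log2 levels of 10.18 and 10.06 with Activin, 9.73 and 9.82 with Nodal, and 9.32 and 9.36 in the undifferentiated cells. The 3 groups did not overlap, with Activin highest, but limma's direct contrast of Nodal and Activin did not pass (adjusted p = 0.0856). Against undifferentiated cells the log2 difference was 0.78 after Activin (SE 0.0897, adjusted p = 3.12e-05) and 0.44 after Nodal (adjusted p = 0.00157). The usual partner chain, Col5a2, and Col5a3 were detected on no array. Col11a2, a chain of the minor fibrils of cartilage, did not pass in either comparison, with log2 differences of −0.23 after Activin (adjusted p = 0.154) and −0.14 after Nodal (adjusted p = 0.372). Leaving out undifferentiated replicate 2 made its Activin difference pass (−0.41, adjusted p = 0.0352). Its partner Col11a1 was detected on no array.

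Col1a1, the main chain of type I collagen, had log2 levels of 4.47 and 4.48 with Activin, 4.51 and 4.49 with Nodal, and 5.64 and 5.56 in the undifferentiated cells. It was detected on both undifferentiated arrays and on none of treated cells, and was at least 1.49-fold lower after Activin (adjusted p = 1.28e-06) and at least 1.51-fold lower after Nodal (adjusted p = 1.50e-06). These bounds set the undifferentiated mean against the dimmest detected signal, because an undetected probe has only an upper limit. A bound has no test of its own and holds for the reported processing. The adjusted p printed beside a bound, here and below, is limma's for the fitted difference. The partner of Col1a1 in type I collagen, Col1a2, was detected on no array. Col3a1, which forms type III fibrils without a partner, had log2 levels of 4.39 and 4.47 with Activin, 4.47 and 4.47 with Nodal, and 5.46 and 5.24 in the undifferentiated cells. It too was detected on the undifferentiated arrays alone, and was at least 1.25-fold lower after Activin (adjusted p = 1.81e-05) and at least 1.27-fold lower after Nodal (adjusted p = 2.43e-05). A second Col3a1 probe was detected on no array. In bulk RNA, fewer cells of a type and less RNA per cell cannot be told apart.

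Many fibroblast feeder markers were lower together with Col1a1 and Col3a1. Of 20 markers on the array 17 were tested, and 4 were higher, 12 lower and 1 did not pass after Activin, while 3 were higher, 12 lower and 2 did not pass after Nodal. Of all genes, 36.5% were higher and 37.2% lower after Activin, and 36.8% were higher and 37.4% lower after Nodal. Lox, Mfap5, Mgp, Prrx1, S100a4 and Twist2 could pass the filter only through the undifferentiated arrays, as their tested probes were detected on no array of treated cells. The summed normalized signal of the 17 markers was 6027 to 6423 after Activin, 5045 to 5261 after Nodal and 9964 to 10639 in undifferentiated cells. On both arrays of a group, 9 of the 20 were detected after Activin, 10 after Nodal and 16 in undifferentiated cells. Fap, Lum and Postn were detected on no array, Pdgfrb was not detected in undifferentiated cells, and Lox, Mgp, S100a4, Mfap5 and Twist2 were not detected in either treated group, nor Thy1 and Prrx1 after Nodal. Thy1, a surface protein of fibroblasts, had log2 levels of 5.12 and 4.70 with Activin, 4.55 and 4.62 with Nodal, and 8.85 and 8.89 in the undifferentiated cells. Other markers of the list went the opposite way, and they are named here after their values were seen. Pdgfra, a growth factor receptor of mesenchyme, rose by 1.60 on the log2 scale after Activin (adjusted p = 1.77e-07) and by 2.07 after Nodal (adjusted p = 2.88e-08), and Twist1, a transcription factor of mesenchyme, was 2.49-fold higher after Activin and 2.30-fold higher after Nodal. Pdgfrb was also called higher in both, but it could pass the filter only through arrays of treated cells, which set its direction. Acta2 was called higher after Activin by 0.28. That Acta2 call was kept in 11 settings and lost in 4. On its further probes the Activin and undifferentiated arrays overlapped, as with 9.19 and 9.27 against 9.22 and 9.29. The part of feeder cells in the lower collagen chains was not tested.

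The tested endothelial and macrophage markers were also lower. Of 8 endothelial markers, 3 were tested and all 3, Pecam1, Esam and Tek, were lower in both treated groups, with a summed signal of 87.4 to 107 after Activin, 113 to 119 after Nodal and 573 to 595 in undifferentiated cells. Pecam1 is also made by ES cells and was undetected in treated cells, and Cdh5, Kdr, Tie1, Emcn and Cldn5 were detected on no array. Of 8 macrophage markers, 5 were tested and all 5 were lower in both treated groups, with a summed signal of 189 to 192 after Activin, 169 to 174 after Nodal and 5106 to 5910 in undifferentiated cells. Lyz1 and Lyz2, lysozymes, and Tyrobp were not detected in treated cells and, like Pecam1, could pass the filter only through the undifferentiated arrays, so a lower call was the one direction open to them. The share of all genes that was lower was 37.2% after Activin and 37.4% after Nodal. Of the macrophage genes, Ptprc, Csf1r and Fcer1g were detected on no array. The part of such cells in the collagen results was not tested.

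**Figure D2:**
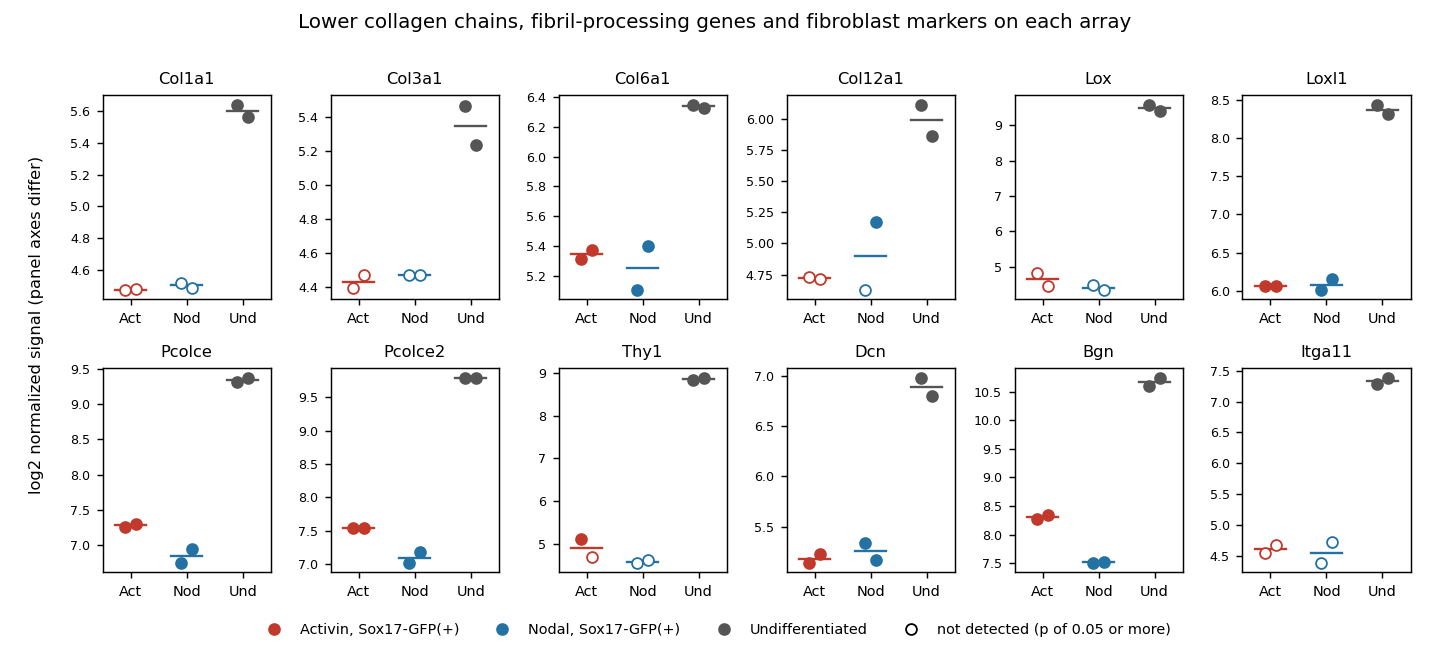
Log2 normalized signal on each array of 4 collagen chains that were lower in treated cells, of genes that process or cross-link fibrils (Lox, Loxl1, Pcolce, Pcolce2), of fibroblast markers and fibril proteoglycans (Thy1, Dcn, Bgn) and of the collagen receptor Itga11. Points are arrays, bars are means of 2 arrays and open points were not detected; in every panel the 4 arrays of treated cells lie below the 2 undifferentiated ones, as genes that were lower were chosen for it.

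Of the 4 basement membrane genes, Col4a5 alone was detected. Its chain joins the trimers of kidney, lens and other specialised basement membranes, with Col4a3 and Col4a4 or with Col4a6. The log2 levels were 6.67 and 6.40 with Activin, 6.82 and 6.92 with Nodal, and 4.76 and 4.57 in the undifferentiated cells. Col4a5 was detected on all 4 arrays of treated cells and on neither undifferentiated array, and was at least 2.80-fold higher after Activin (adjusted p = 3.32e-07) and at least 3.52-fold higher after Nodal (adjusted p = 1.02e-07). On the log2 scale the Col4a5 bounds are 1.48 and 1.82, and they hold for the reported processing only. Over the settings tried, its fitted difference went down to 1.09 after Activin and 1.34 after Nodal. Col4a3, Col4a4 and Col4a6 were detected on no array. The general basement membrane chains, which are no members here, rose as well, Col4a1 by 1.78 after Activin and by 2.24 after Nodal and Col4a2 by 1.69 after Activin and by 2.19 after Nodal (log2 differences). Among 15 tested markers of parietal endoderm, the extraembryonic tissue that lays down a thick basement membrane, 10 were higher and 5 lower after Activin, and 10 were higher, 3 lower and 2 did not pass after Nodal, where 36.5% of all genes were higher after Activin and 36.8% after Nodal. Their summed signal was 18734 to 19721 after Activin, 23477 to 23858 after Nodal and 9231 to 9648 in undifferentiated cells. Col4a1 and Col4a2 are themselves on this list, so their rises are counted again in its calls and its summed signal. Among the lower markers after Activin, Sox7 differed by −2.09 and Nid1 by −1.88 (log2 differences). Of all genes, 37.2% were lower after Activin and 37.4% after Nodal. Plat was detected on no array, Thbd was not detected in treated cells and Pth1r was not detected in undifferentiated cells. Thbd and Pth1r could pass the filter only through the other side, so the filter set their direction. The part of such cells in the Col4a5 result was not tested.

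The transmembrane chain Col23a1, a cell surface collagen with a short cytoplasmic end, had the largest fitted difference of the 17 chains. Its log2 levels were 7.88 and 8.04 with Activin, 7.77 and 7.77 with Nodal, and 4.48 and 4.67 in the undifferentiated cells. It was detected on all arrays of treated cells and on neither undifferentiated one. It was at least 7.52-fold higher after Activin (adjusted p = 2.29e-09) and at least 6.57-fold higher after Nodal (adjusted p = 3.22e-09). On the log2 scale these bounds are 2.91 and 2.72, and they hold for the reported processing only. Over the settings tried, the fitted difference went down to 2.29 after Activin and 2.12 after Nodal. Col17a1, the transmembrane collagen of hemidesmosomes, went the other way, with log2 levels of 5.17 and 4.96 with Activin, 5.08 and 5.31 with Nodal, and 5.85 and 5.91 in the undifferentiated cells. The log2 difference was −0.81 after Activin (SE 0.110, adjusted p = 9.46e-05) and −0.68 after Nodal (adjusted p = 0.000301). This probe was detected on 1 Activin array. Further Col17a1 probes, which did not pass the filter, differed by 0.19 and 0.06 after Activin and by −0.18 and −0.02 after Nodal. The Col17a1 fall thus rests on 1 dim probe. Col25a1, a transmembrane collagen first described in brain, did not pass, with log2 differences of −0.05 after Activin (adjusted p = 0.711) and −0.18 after Nodal (adjusted p = 0.191). Col13a1, the remaining transmembrane member, was detected on no array.

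Col7a1, which forms the fibrils that anchor epithelial basement membranes to the tissue below, had log2 levels of 7.35 and 7.79 with Activin, 7.02 and 7.17 with Nodal, and 5.54 and 5.51 in the undifferentiated cells. All arrays of treated cells lay above the undifferentiated ones, and both Activin arrays lay above both Nodal arrays. In limma's direct contrast Nodal and Activin did not differ past the threshold (adjusted p = 0.114). The level rose by 2.04 on the log2 scale after Activin (SE 0.135, 4.12-fold, adjusted p = 5.72e-07) and by 1.57 after Nodal (2.97-fold, adjusted p = 3.82e-06). A second Col7a1 probe was detected on no array. Col8a2, a network chain known from the cornea, was detected on 1 array of each treated group and on no undifferentiated array. Its log2 levels were 5.14 and 4.85 with Activin, 4.87 and 5.07 with Nodal, and 4.60 and 4.71 in the undifferentiated cells. limma called it higher after Activin (adjusted p = 0.0281) and after Nodal (adjusted p = 0.0391), but the means of the treated groups, 5.00 and 4.97, lay at the level of the dimmest detected probes, so no fold is given. With an offset of 50 neither call held (adjusted p = 0.0848 after Activin and 0.113 after Nodal), and leaving out undifferentiated replicate 1 ended both calls (adjusted p = 0.123 after Activin and 0.155 after Nodal). The Activin call was also lost without Activin replicate 1 (adjusted p = 0.207), and the Nodal call without Nodal replicate 2 (adjusted p = 0.228) or undifferentiated replicate 2 (adjusted p = 0.0569).

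**Figure D3:**
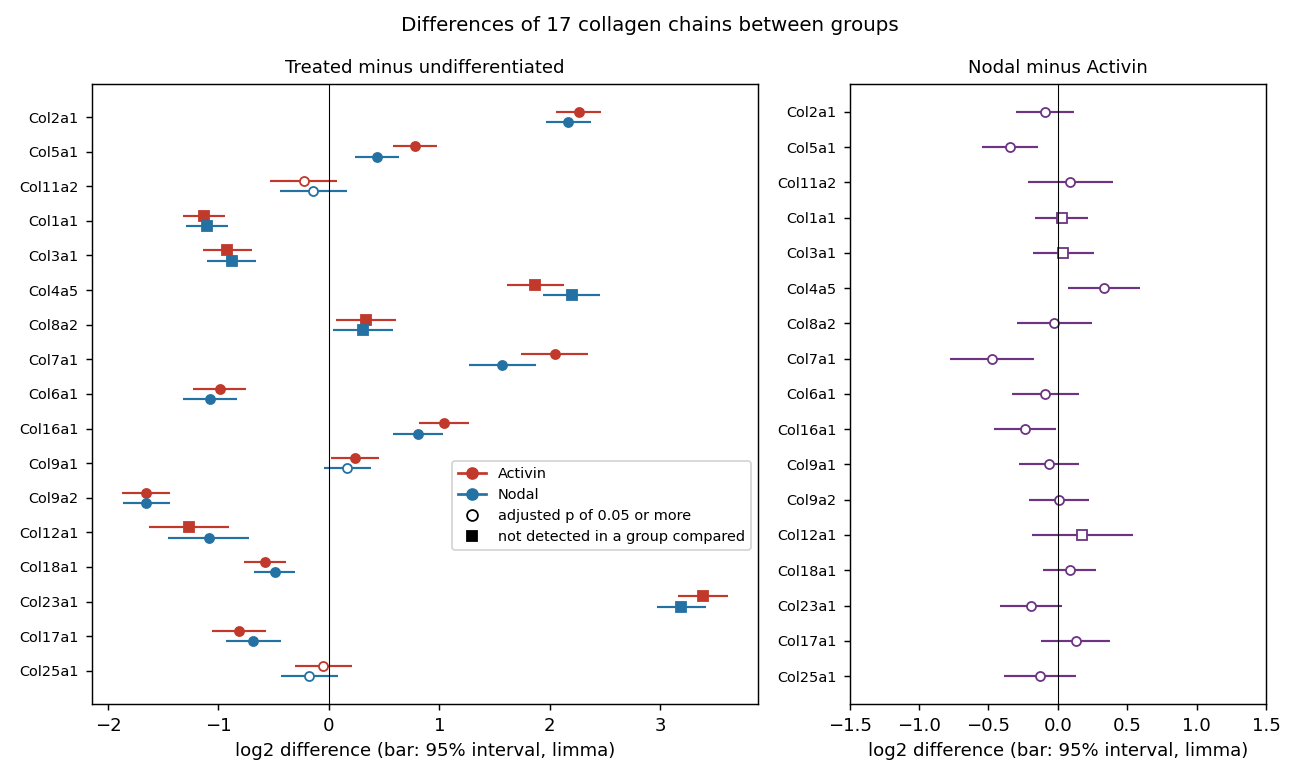
Log2 differences of the 17 tested chains with 95% intervals from limma. The left panel sets cells after Activin and after Nodal against undifferentiated cells, and the right panel sets Nodal against Activin; an open point has an adjusted p of 0.05 or more, and a square marks a fitted difference in which a group had no array with the probe detected, so that it is not a measured size. Col2a1 and Col7a1 lie furthest right among the circles on the left panel and Col9a2 furthest left, while Nodal and Activin differ by −0.47 (Col7a1) to 0.33 (Col4a5).

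To show the start regions of the chains with the widest contrasts, the 250 bases before the annotated start were taken from RefSeq promoters of the mouse assembly GRCm38.p6. Of the 34 members, 27 have an entry in that table, and Col2a1 is not among them. Shown are Col23a1 (chr11:51289670-51289919, plus strand), with the largest increase, Col9a2 (chr4:121039316-121039565, plus strand), with the largest decrease, and the neighbours Col4a5 (chrX:141475169-141475418, plus strand) and Col4a6 (chrX:141474077-141474326, minus strand), which start next to each other on opposite strands of chromosome X although only Col4a5 was detected. Each is written 5′ to 3′ on its own strand, and capitals mark matches, on either strand, to the TATA box (TATAAA), the CCAAT box (CCAAT), the GC box (GGGCGG), a Sox motif (AACAAT), a Fox motif (TGTTTAC) and a Smad motif (CAGACA).
Col23a1: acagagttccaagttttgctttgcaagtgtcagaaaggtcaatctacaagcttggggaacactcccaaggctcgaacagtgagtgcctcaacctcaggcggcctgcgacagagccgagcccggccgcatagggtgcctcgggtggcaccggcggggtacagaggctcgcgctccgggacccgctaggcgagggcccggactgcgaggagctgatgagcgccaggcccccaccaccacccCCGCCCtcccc
Col9a2: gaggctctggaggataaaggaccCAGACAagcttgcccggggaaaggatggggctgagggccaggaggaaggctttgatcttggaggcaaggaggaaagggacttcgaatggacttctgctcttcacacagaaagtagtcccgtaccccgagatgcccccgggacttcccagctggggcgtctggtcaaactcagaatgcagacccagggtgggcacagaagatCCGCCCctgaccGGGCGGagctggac
Col4a5: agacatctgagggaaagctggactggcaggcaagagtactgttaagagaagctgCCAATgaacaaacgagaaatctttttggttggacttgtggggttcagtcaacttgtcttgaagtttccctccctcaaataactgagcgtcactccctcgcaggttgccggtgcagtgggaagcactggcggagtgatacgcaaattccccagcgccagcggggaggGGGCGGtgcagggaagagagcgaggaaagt
Col4a6: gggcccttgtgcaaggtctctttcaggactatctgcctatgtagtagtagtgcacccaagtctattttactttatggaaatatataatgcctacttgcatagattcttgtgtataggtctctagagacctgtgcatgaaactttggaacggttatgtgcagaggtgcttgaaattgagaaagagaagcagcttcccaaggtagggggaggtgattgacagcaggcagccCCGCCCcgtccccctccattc
The GC box was matched in all 4 windows, and it is present in 32.7% of the 32851 promoters in the table. It occurs once in Col23a1, 11 to 6 bases before the start, 2 times in Col9a2, once in Col4a5 and once in Col4a6. Col4a5 also holds the CCAAT box, present in 33.8% of promoters, and Col9a2 the Smad motif, present in 17.1%. The TATA, Sox and Fox letters, which occur in 12.4%, 9.42% and 3.17% of promoters, are not in these 4 windows. No motif overlapped another. The windows of Col7a1 and Col3a1 were searched too: Col7a1 holds the GC box, the CCAAT box and the Smad motif, while Col3a1 has no GC box and holds the TATA box, the Smad motif and the Sox motif, the last in 2 overlapping matches. These matches describe the letters and say nothing of factor binding.

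Of the 7 genes whose chains sit on fibrils (the FACIT class), 4 were tested. Col16a1, found on fibrils and near basement membranes, had log2 levels of 8.14 and 8.23 with Activin, 8.06 and 7.84 with Nodal, and 7.10 and 7.18 in the undifferentiated cells. It rose by 1.05 on the log2 scale after Activin (SE 0.0994, adjusted p = 8.10e-06) and by 0.81 after Nodal (adjusted p = 4.81e-05). Col9a1 and Col9a2, 2 chains of the type IX collagen that coats cartilage fibrils, did not share a direction. Col9a2 had log2 levels of 5.30 and 5.17 with Activin, 5.17 and 5.30 with Nodal, and 6.83 and 6.95 in the undifferentiated cells. Its levels in treated cells lay just above the lowest detected signals, 4.99 to 5.06, so the size of its fall is uncertain. It fell by 1.66 on the log2 scale after Activin (SE 0.0958, 3.16-fold, adjusted p = 2.19e-07) and fell by 1.65 after Nodal (3.14-fold, adjusted p = 2.20e-07), while the Activin and Nodal arrays overlapped.

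Col9a1 had log2 levels of 5.37 and 5.19 with Activin, 5.27 and 5.16 with Nodal, and 5.01 and 5.09 in the undifferentiated cells. Its differences of 0.23 after Activin (adjusted p = 0.0494) and 0.17 after Nodal (adjusted p = 0.140) were small, and the first passed in 3 of 15 settings, the one reported included, and was lost on leaving out any array but Activin replicate 2. The third type IX chain, Col9a3, was detected on no array. Col12a1, a chain on the surface of type I fibrils, had log2 levels of 4.73 and 4.72 with Activin, 4.63 and 5.17 with Nodal, and 6.11 and 5.86 in the undifferentiated cells. It was detected on no Activin array, on 1 Nodal array and on both undifferentiated arrays. The fall was at least 1.94-fold after Activin (adjusted p = 6.56e-05) and came to 1.09 on the log2 scale after Nodal (SE 0.162, adjusted p = 0.000181).

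Col6a1, a chain of the beaded filaments around cells, had log2 levels of 5.32 and 5.38 with Activin, 5.11 and 5.41 with Nodal, and 6.35 and 6.32 in the undifferentiated cells. It fell by 0.99 on the log2 scale after Activin (SE 0.108, adjusted p = 2.10e-05) and fell by 1.08 after Nodal (adjusted p = 1.11e-05). A second Col6a1 probe differed by −0.81 after Activin and −0.58 after Nodal, so the probes gave 1 direction at different sizes. Its partner Col6a2 was detected on no array. Col18a1, a basement membrane collagen whose cleaved end is endostatin, had log2 levels of 11.64 and 11.67 with Activin, 11.76 and 11.72 with Nodal, and 12.19 and 12.27 in the undifferentiated cells. It fell by 0.58 after Activin (SE 0.0836, adjusted p = 0.000157) and fell by 0.49 after Nodal (adjusted p = 0.000449), and the level of a second probe fell by 0.75 after Activin and fell by 0.69 after Nodal. Col18a1 was thus lower in both treated groups, where Col4a1, Col4a2 and Col4a5 were higher.

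Of the falls past 2-fold, Col1a1 and Col12a1 after Activin and Col1a1 after Nodal have bounds under 2-fold. Without background correction, or with an offset of 50, 1 chain was at least 2-fold lower after Activin and 1 after Nodal, although all 7 calls of a fall held in both. Leaving out undifferentiated replicate 2 gave 5 such chains after Activin, and leaving out Nodal replicate 1 gave 2 after Nodal.

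Some collagen genes lie next to each other on a chromosome. In RefSeq order, Col3a1 is next to Col5a2, Col6a1 next to Col6a2, Col9a1 next to Col19a1 and Col4a5 next to Col4a6, and in each pair the first was tested and the other was detected on no array. Col4a3 and Col4a4 are neighbours too, and both were undetected. The neighbours Col4a1 and Col4a2, which are no members, were both detected on all 6 arrays.

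Nodal and Activin were then compared directly. The Nodal arrays lay above the Activin arrays in 4 of the 17 chains and below them in 4, and 9 overlapped. That share was not counted over all genes. None of the 17 chains passed in limma, against 2.88% of all genes, and 4 had an unadjusted p under 0.05. Col7a1 differed by −0.47 (log2, Nodal minus Activin, 95% interval −0.78 to −0.17, adjusted p = 0.114), Col5a1 by −0.34 (−0.55 to −0.14, adjusted p = 0.0856), Col4a5 by 0.33 (0.07 to 0.59, adjusted p = 0.194) and Col16a1 by −0.24 (−0.46 to −0.01, adjusted p = 0.293). For the 7 other chains detected on all 4 arrays of treated cells the intervals lay between −0.42 (Col23a1) and 0.27 (Col18a1), so differences beyond those sizes are outside them, but smaller ones are not. The remaining 6, Col1a1, Col3a1, Col8a2, Col11a2, Col12a1 and Col17a1, were undetected on at least 1 of these arrays, and their intervals set no limit on a difference in expression. The Col5a1 and Col7a1 results turned on the background setting. Without background correction Col5a1 passed (adjusted p = 0.0279) and so did Col7a1 (adjusted p = 0.0324), and with an offset of 50 they passed again (adjusted p = 0.0223 and 0.0451). Leaving out Activin replicate 1 made Col7a1 pass at −0.69 (adjusted p = 0.0282).

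Genes that make, process, bind or degrade collagen were read from lists beside the chains. Their counts stand against the same shares of all genes, 36.5% higher and 37.2% lower after Activin and 36.8% higher and 37.4% lower after Nodal. With so few genes a list near those shares is no result about it. Mia3, P3h2, Mmp15, Comp and Podn were undetected in undifferentiated cells, and Adamts2, Lox, Itga11, Mmp13 and Thbs2 in treated cells. They could pass the filter only through the other side, so the filter set the direction of their calls. The synthesis and folding list had 20 tested genes, of which 9 were higher, 7 lower and 4 did not pass after Activin, and 6 were higher, 6 lower and 8 did not pass after Nodal, with median log2 differences of −0.03 and −0.01, so its shares were near those of all genes. Serpinh1, the collagen chaperone Hsp47, had log2 levels of 9.64 and 9.89 with Activin, 10.06 and 10.14 with Nodal, and 8.10 and 8.27 in the undifferentiated cells, so the groups of treated cells lay above the undifferentiated one. It rose by 1.58 after Activin (adjusted p = 7.79e-07) and by 1.92 after Nodal (adjusted p = 1.89e-07). P3h2, a prolyl 3-hydroxylase of collagen, was below detection in undifferentiated cells, at least 3.25-fold higher after Activin and at least 3.68-fold higher after Nodal. Crtap, a helper protein of prolyl 3-hydroxylation, fell by 1.15 after Activin and fell by 0.92 after Nodal, and Tmem38b, an ion channel of the endoplasmic reticulum, fell by 2.01 after Activin and fell by 1.58 after Nodal (log2 differences).

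The maturation and cross-linking list had 8 tested genes, of which 2 were higher and 6 lower after Activin, and 2 were higher, 5 lower and 1 did not pass after Nodal, with median log2 differences of −1.49 and −1.58. Lox, which cross-links fibrils, had log2 levels of 4.83 and 4.46 with Activin, 4.48 and 4.34 with Nodal, and 9.58 and 9.39 in the undifferentiated cells. It was undetected in treated cells and at least 22.0-fold lower after Activin (adjusted p = 1.39e-09) and at least 22.3-fold lower after Nodal (adjusted p = 1.05e-09). Loxl1, a related enzyme, fell by 2.32 after Activin and fell by 2.30 after Nodal, and Pcolce2, which speeds removal of the C-terminal propeptide of fibrillar collagens, fell by 2.25 after Activin and fell by 2.70 after Nodal. Pcolce, of the same family, fell by 2.51 after Nodal, and its mean level was 7.28 after Activin and 9.35 in undifferentiated cells. Bmp1, the protease that removes this propeptide, rose by 2.14 after Activin (adjusted p = 5.51e-08). The Bmp1 arrays after Nodal, at 9.91 and 10.08, also lay above the undifferentiated ones, at 8.12 and 8.21. Lox and Adamts2 could pass the filter only through the undifferentiated arrays, so lower was the one direction open to them. Lox is also on the fibroblast list, as are Timp1 and Dcn below.

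Of 9 collagen receptors on the array 3 were tested. Ddr1, a receptor tyrosine kinase that binds collagen, rose by 2.02 after Activin and by 2.08 after Nodal, and Itga11, an integrin subunit for fibrillar collagen, was undetected in treated cells and at least 4.95-fold lower after Activin and at least 5.02-fold lower after Nodal. Itgb1, the shared integrin beta subunit, differed by −0.19 after Activin, which did not pass, and by −0.29 after Nodal (adjusted p = 0.0396), a call that most settings tried did not keep (adjusted p = 0.0947 with cyclic loess). On a second Itgb1 probe the Nodal arrays, at 6.41 and 6.50, lay between the undifferentiated ones, at 6.32 and 6.55. The other receptors were detected on no array.

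The degradation list had 9 tested genes, with 5 higher, 2 lower and 2 not passing in each treated group and median log2 differences of 0.30 after Activin and 0.26 after Nodal. Mmp15, a membrane-bound protease, was below detection in undifferentiated cells, at least 5.58-fold higher after Activin and at least 5.38-fold higher after Nodal. Mmp14, the main membrane-bound collagenase, rose by 1.80 after Activin and by 1.69 after Nodal. Timp1, a secreted inhibitor of these proteases, fell by 2.94 after Activin and fell by 2.82 after Nodal, and the collagenase Mmp13 was undetected in treated cells and at least 3.09-fold lower after Activin and at least 3.13-fold lower after Nodal.

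Of 8 tested genes for matrix proteins that sit with fibrils, 2 were higher, 5 lower and 1 did not pass after Activin, and 2 were higher, 4 lower and 2 did not pass after Nodal, with median log2 differences of −0.75 and −0.86. Bgn, a small proteoglycan, fell by 2.36 after Activin and fell by 3.15 after Nodal. Dcn, a proteoglycan that coats fibrils, fell by 1.71 after Activin and fell by 1.64 after Nodal, and Thbs2, a thrombospondin, was undetected in treated cells and at least 3.86-fold lower after Activin and at least 3.91-fold lower after Nodal. Thbs1, its relative, fell by 1.53 after Nodal. Podn, another small proteoglycan, was below detection in undifferentiated cells, at least 1.67-fold higher after Activin. The other treatment is not given for Thbs1 and Podn, as only the 4 largest changes of a contrast are named.

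Between Nodal and Activin, Pcolce2 (−0.45, adjusted p = 0.0329) and Pcolce (−0.44, adjusted p = 0.0448) passed in the maturation list, Mmp9, a gelatinase, passed in the degradation list (−0.86, adjusted p = 0.00286) and Bgn passed in the fibril-associated list (−0.80, adjusted p = 0.00278). None of the 20 tested synthesis genes passed in limma, with 7 at an unadjusted p under 0.05, and none of the 3 tested receptors passed, with 0 at that level. Without background correction Tmem38b of the synthesis list passed (0.39, adjusted p = 0.0138). The Pcolce and Pcolce2 calls were lost when any single array was left out.

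**Figure D4:**
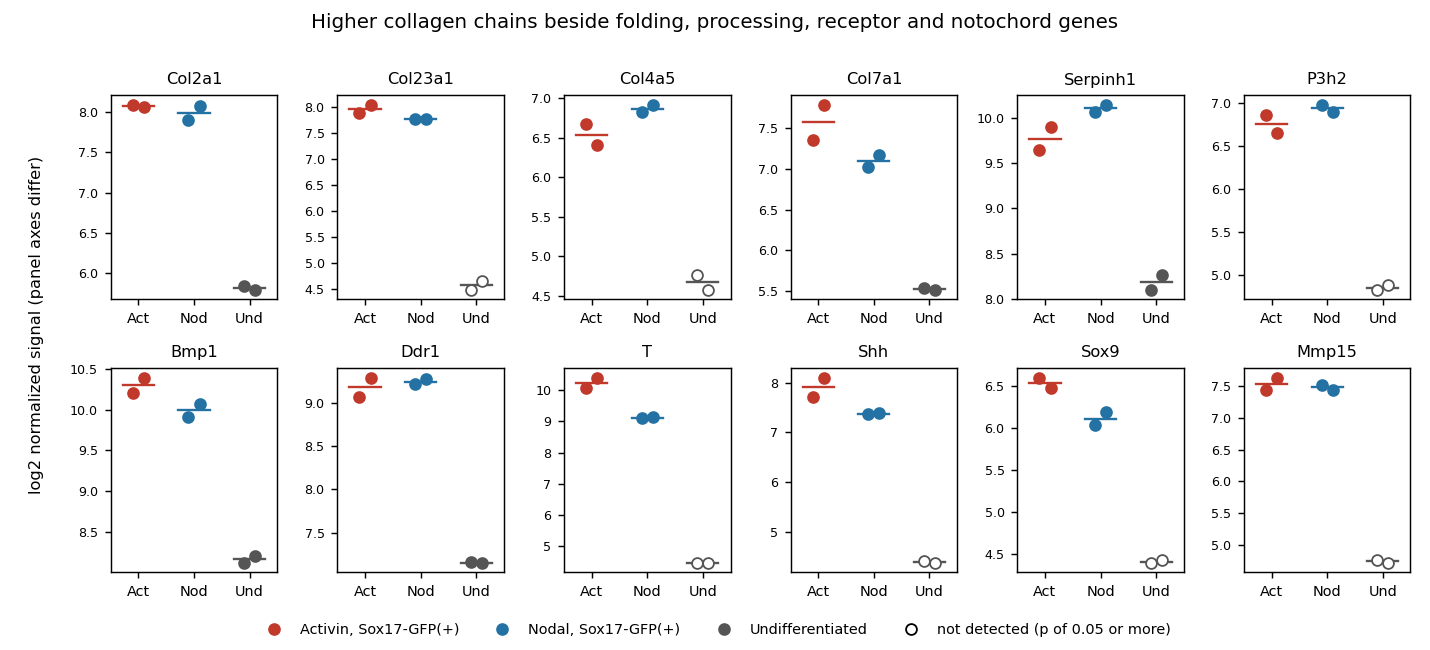
Log2 normalized signal on each array of 4 collagen chains that were higher in treated cells, beside genes of collagen folding (Serpinh1, P3h2), processing (Bmp1), reception (Ddr1) and degradation (Mmp15) and the notochord and cartilage genes T, Shh and Sox9. Points are arrays, bars are means of 2 arrays and open points were not detected; in every panel the 4 arrays of treated cells lie above the 2 undifferentiated ones, as genes that were higher were chosen for it.

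Because Col2a1, Col9a1, Col9a2 and Col11a2 are known from cartilage and notochord, markers of those tissues were read beside them. Of 12 markers 7 were tested, and 6 were higher and 1 did not pass in each treated group, against 36.5% of all genes higher after Activin and 36.8% after Nodal. Of the 7, Comp, Shh, Sox5, Sox9 and T were undetected in undifferentiated cells and could pass the filter only through arrays of treated cells, so their direction was set by the filter. The summed signal of the 7 was 1678 to 1996 after Activin, 1070 to 1074 after Nodal and 234 to 237 in undifferentiated cells. T, a transcription factor of the primitive streak and notochord, had log2 levels of 10.09 and 10.41 with Activin, 9.10 and 9.15 with Nodal, and 4.46 and 4.45 in the undifferentiated cells. Shh, a signal made by notochord, was at least 7.26-fold higher after Activin and at least 5.01-fold higher after Nodal, and Sox9, a transcription factor that switches on Col2a1 in cartilage, was at least 2.80-fold higher after Activin and at least 2.08-fold higher after Nodal. Acan and Hapln1 of the cartilage matrix, Matn3, Sox6 and the notochord factor Noto were detected on no array. Of the 4 chains, Col2a1 was clearly higher with these markers, Col9a2 was lower, and Col9a1 and Col11a2 had the small differences given above. The part of such cells in the Col2a1 result was not tested.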

How the data were processed

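The values were made from total RNA as biotin-labelled cRNA on Illumina bead arrays. Per the file headers, the deposited signal table holds an intensity for each probe and array and beside it a detection p-value, for 25697 probes and 6 arrays; the series text calls the table non-normalized, and which array model and scanner software were used is not given in the sources used here. No column of per-sample values was left out. Columns were tied to groups by their names.

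Signals were background-corrected by normexp from the detection p-values (limma 3.58.1, R 4.3.3, offset 16), log2-transformed and quantile-normalized. Probes detected (p-value under 0.05) on at least 2 arrays were kept, 14050 in all, and a gene was read from its brightest probe, giving 10222 genes, of which 2699 had other tested probes. File symbols were updated through RefSeq names (7082 updated, 1046 kept, 21 turned into dates and not used as genes). limma's lmFit, contrasts and eBayes ran over all 6 arrays, two-sided, with Benjamini-Hochberg adjustment over all genes of a contrast. A chain undetected in a group was given a bound against the lowest detected signal of each array, or its own where higher. Arrays of the same number were not paired in the fit, as their deviations correlated weakly (closing section). The script was tested on simulated data.

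Every tested chain is named, with per-array values where it passed at 2-fold. From each of 5 collagen pathway lists, up to 4 passing genes with the largest change per contrast are named, and marker lists are given by counts. The members and lists were chosen with earlier results of these data known. Alternatives were no background correction, offset 50, median scaling, cyclic loess, no filter, detection p under 0.01, every probe, the mean of a gene's probes, leaving out each array, a replicate block and the authors' averaged intensity table.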

Additional observations from a re-analysis of the deposited data

Results flagged for a closer look

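Several genes beside the chains differed between the effects of Nodal and Activin, by limma's direct contrast of the treated groups. T was lower after Nodal than after Activin by a log2 difference of −1.12 (adjusted p = 0.00141), with levels of 9.10 and 9.15 after Nodal and 10.09 and 10.41 after Activin. Mmp9 differed by −0.86 (levels of 6.18 and 6.39 after Nodal, 7.10 and 7.19 after Activin) and Bgn by −0.80 (7.51 and 7.53 after Nodal, 8.28 and 8.35 after Activin). Smaller differences were those of Pcolce2 (−0.45), Pcolce (−0.44) and Sox9 (−0.43, adjusted p = 0.0472). Among the markers of other cell types, Tagln (−0.75), Cd68 (−0.68) and Acta2 (−0.55) were also lower after Nodal than after Activin. Higher after Nodal than after Activin were Sox7 (1.01, adjusted p = 0.0148), Lama1 (0.88, adjusted p = 0.0351), Pth1r (0.52), Lamb1 (0.49) and Pdgfra (0.47). Mean Sox7 levels, 6.91 after Nodal and 5.90 after Activin, were both below the 7.99 of undifferentiated cells. Lama1 arrays read 10.93 and 10.92 after Nodal, 9.70 and 10.37 after Activin, and 10.86 and 10.73 in undifferentiated cells. Of the 14 genes, T, Mmp9, Bgn and Tagln kept their calls whichever single array was left out. The Acta2, Cd68, Sox7, Lama1, Pth1r, Lamb1 and Pdgfra calls were each lost on leaving out at least 1 array of treated cells. The Pcolce2, Pcolce and Sox9 calls were each lost on leaving out any single array. No collagen chain was among these genes. With 2 arrays in a group, no array could be set apart from its group.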

How the results depend on the processing

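Of 756 recomputed differences of the 17 chains in the tested settings, 727 kept their side of the threshold, 23 lost a call and 6 gained one. Of the 727, 16 changed sign with neither value past the threshold. The changed calls were of Col8a2, Col9a1, Col11a2, Col5a1 and Col7a1, and no call of a chain reversed. Without background correction 2 chains were lower after Nodal than after Activin, with an offset of 50 again 2 (Col5a1 and Col7a1 in both), and when single arrays were left out 0 to 1. Chains at least 2-fold lower after Activin numbered 1 without background correction and 1 with an offset of 50, and 3 to 5 with single arrays left out; after Nodal they numbered 1, 1 and 2 to 5. An offset of 50 shrank the fitted Col1a1 difference after Activin to −0.56 and that of Col3a1 to −0.43, both still past the threshold, because added signal compresses dim probes. The stricter detection filter left 11 chains.

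Deviations of same-numbered arrays from their group means correlated at 0.102 (Activin and Nodal), 0.00404 (Activin and undifferentiated) and 0.0253 (Nodal and undifferentiated). These low values gave no ground for pairing arrays by number, but they cannot exclude a shared culture or run. With the replicate block, 7 chains were higher and 7 lower after Activin, and 7 were higher and 7 lower after Nodal; Col9a1 lost its call (adjusted p = 0.0519).

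The authors' averaged intensities, with medians of 19.3 for Activin, 19.2 for Nodal and 19.1 for undifferentiated cells, are on a linear scale; how they were background-treated and normalized is unknown. As log2 of the value plus 16, with values under 0 set to 0, they gave Col1a1 a difference of −1.79 and Col3a1 one of −1.52 after Activin, with no test. Of 2202 recomputed differences of other named genes, 74 lost and 25 gained a call and none reversed. Of the 17 chains, 9 were undetected on at least 1 array and are limited by low signal. These were Col1a1, Col3a1, Col4a5, Col8a2, Col9a1, Col11a2, Col12a1, Col17a1 and Col23a1. Col6a1, Col9a2 and Col25a1 were detected on all arrays but lay near the detection limit in treated cells. Their mean log2 levels after Activin were 5.35, 5.23 and 5.34.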
